A study of Arabidopsis thaliana with 4 samples.

Results

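Cuticular wax biosynthesis is represented here by 10 genes of *Arabidopsis*, chosen by their gene identifiers: KCS6, CER2, KCR1, PAS2, CER10, CER1, CER3, MAH1, CER4, and WSD1. These are 10 of the 22409 reference genes among the 23281 features of the Nanopore expression table. The plants were wild-type Columbia (Col-0) without a treatment or a transgene, grown at 23 °C by day and 18 °C at night under 16 h of light and 8 h of dark. Their aboveground parts, pooled over several plants per replicate, were harvested once the rosette had reached its full size. RNA was sequenced as amplified cDNA in 3 Nanopore replicates, CK1, CK2, and CK3, and as 1 PacBio library. With a single condition, the replicates could only be compared with each other, and no group test was possible.

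The cuticle is the waterproof coat of the aerial epidermis, and its waxes are made from very-long-chain fatty acids in epidermal cells. A fatty acid elongase of the endoplasmic reticulum lengthens acyl-CoA through condensation, reduction, dehydration, and a second reduction. The products then enter an alkane-forming branch, which dominates the wax of *Arabidopsis* leaves and stems, or an alcohol-forming branch, which gives primary alcohols and wax esters. In bulk tissue, fewer cells of a type and less RNA per cell cannot be told apart.

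Values are CPM (counts per 1000000 reads), recomputed so that each replicate is divided by its own total. The replicates held 8122432 reads in CK1, 7386184 in CK2, and 6835029 in CK3, and 3 reads, the level that a count of 0 still allows, correspond to 0.369, 0.406, and 0.439 CPM. All 4 epidermal markers were detected, with summed levels of 201, 197, and 220 CPM in CK1, CK2, and CK3. They were the transcription factor genes ATML1 (19.5 ± 2.34 CPM, SD, n = 3) and PDF2 (26.5 ± 1.46 CPM), PDF1 (51.9 ± 7.86 CPM), and FDH (108 ± 4.35 CPM). FDH held the largest part of the sum and is the same gene as KCS10, a family relative of KCS6, so it is no independent marker here. None of the 4 floral organ markers (AP1, AP3, PI, and AG) exceeded 3 reads in all replicates, with summed levels of 0.585 to 2.44 CPM. Of 3 listed root markers, only PIN2 was among the features, with 0, 0, and 3 reads. Both guard cell markers (MYB60 and FAMA) exceeded 3 reads in all replicates. The trichome marker GL2 did so as well, but GL1, with 1, 3, and 2 reads, did not. CK3 stood apart in genes tied to the circadian clock, which were picked with earlier results of these data known. GRP7 had 813, 1016, and 5657 reads in CK1, CK2, and CK3, and ELF4 had 13, 16, and 284. The part of this difference in the wax gene levels was not tested, and the means without CK3 are therefore given as well.

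Of the 10 wax genes, 8 exceeded 3 reads in each of the replicates, whereas MAH1 and WSD1 did not, and genes above this limit are called detected. Over all 22409 reference genes the detected share was 77.8%, so 8 of 10 is near the background. A total of 7 genes (KCS6, CER2, CER1, PAS2, KCR1, CER10, and CER3) reached 20 reads in all 3 replicates, as did 14405 of the 23281 features. The same 7 were above 12.5 CPM, the median of the 17440 reference genes detected by the limit of 3 reads. The 3 genes CER4, WSD1, and MAH1 were near the limit of detection. The split into 7 and 3 was made on these same reads, so the gap and the shares of reads follow in part from it. The lowest of the 7 was above the highest of the 3 in each library, with 23.5 against 1.23 CPM in CK1, 20.2 against 1.35 CPM in CK2, and 22.5 against 1.76 CPM in CK3. Together the 10 genes had 2777, 2757, and 2341 reads, or 0.0342%, 0.0373%, and 0.0343% of the reads of CK1, CK2, and CK3, and the 7 held 99.3% ± 0.108 (SD, n = 3) of these reads.

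**Figure D1:**
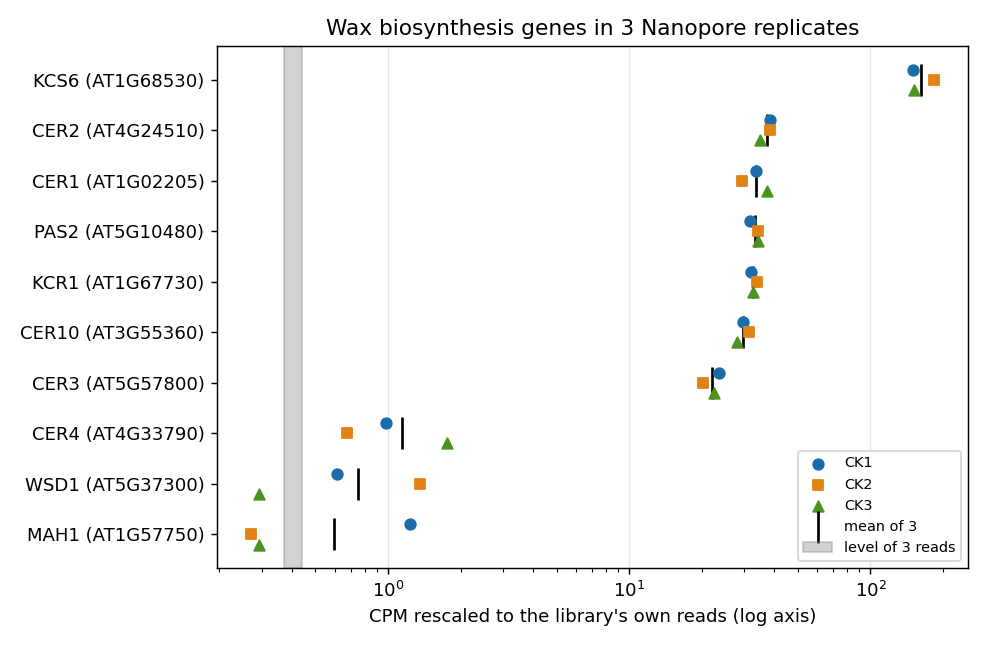
Level of each of the 10 wax biosynthesis genes in the 3 Nanopore replicates, as rescaled CPM on a log axis, with 1 symbol per replicate, a vertical tick at the mean, and a grey band at the level of 3 reads. KCS6 stands above the others at 150 to 184 CPM, CER2, CER1, PAS2, KCR1, CER10, and CER3 lie between 20.2 and 38.4 CPM, and CER4, WSD1, and MAH1 lie at 1.76 CPM or lower.

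KCS6 (AT1G68530, also known as CER6), on the minus strand of chromosome 1 from 25712414 to 25715024, encodes the 3-ketoacyl-CoA synthase that carries out the condensation step for wax precursors. It had 1222, 1359, and 1031 reads in CK1, CK2, and CK3, or 150, 184, and 151 CPM, with a mean of 162 ± 19.3 CPM (SD, n = 3). CK2 was the highest, and CK1 and CK3 were nearly equal. The level was above that of 95.2% of the detected reference genes, and KCS6 alone accounted for 45.8% ± 3.04 (SD, n = 3) of the reads of the 10 genes. Without CK3, the mean was 167 CPM.

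KCR1 (AT1G67730, chromosome 1, 25391338 to 25393889, plus strand) encodes the 3-ketoacyl-CoA reductase, which acts after the condensing enzyme. It had 259, 249, and 222 reads, or 31.9, 33.7, and 32.5 CPM, and its spread of 0.931 CPM around a mean of 32.7 CPM (SD, n = 3) was the smallest among the 7 genes. Without CK3 the mean was 32.8 CPM. PAS2 (AT5G10480, chromosome 5, 3297804 to 3300165, minus strand) encodes the 3-hydroxyacyl-CoA dehydratase, the next enzyme of the cycle. It had 256, 253, and 234 reads, or 31.5, 34.3, and 34.2 CPM, with a mean of 33.3 ± 1.57 CPM (SD, n = 3) that was 32.9 CPM without CK3. CER10 (AT3G55360, chromosome 3, 20520930 to 20523098, minus strand) encodes the enoyl-CoA reductase that closes the cycle. It had 241, 231, and 191 reads, or 29.7, 31.3, and 27.9 CPM, with a mean of 29.6 ± 1.67 CPM (SD, n = 3) that was 30.5 CPM without CK3.

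The 3 core elongase genes were thus read at similar rates in every library. The reads of KCR1 were 1.01, 0.984, and 0.949 times those of PAS2 in CK1, CK2, and CK3, a log2 ratio of -0.03 ± 0.05 (SD, n = 3) that lies within its spread. CER10 was below PAS2 in each of the 3 libraries, at 0.941, 0.913, and 0.816 times its reads. A long-read count is not divided by transcript length, so it follows the number of cDNA molecules read. Divided by the lengths of the longest annotated transcripts, 1819, 1037, and 1431 bases, the levels were 18.0 ± 0.512 CPM per kb for KCR1, 32.2 ± 1.52 for PAS2, and 20.7 ± 1.16 for CER10 (SD, n = 3). PAS2 thus stood apart only after the division by its shorter annotated length, and not in the reads themselves. A stretch of 27 bases at the CER10 locus overlaps AT3G55350 on the opposite strand, which had 53, 39, and 29 reads.

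CER2 (AT4G24510, chromosome 4, 12660687 to 12662656, plus strand) encodes a protein related to acyltransferases that works with KCS6 in the last rounds of elongation. It had 312, 283, and 238 reads, or 38.4, 38.3, and 34.8 CPM, with a mean of 37.2 ± 2.05 CPM (SD, n = 3) that was 38.4 CPM without CK3. CK1 and CK2 were level and CK3 was the lowest. KCS6 had 3.92, 4.80, and 4.33 times the reads of CER2 in CK1, CK2, and CK3, which is a log2 ratio of 2.12 ± 0.15 (SD, n = 3). The CER2 locus shares 316 bases with AT4G07275, an antisense long non-coding RNA that was not analysed here, and 96 bases with AT4G24520 on the opposite strand, which had 475, 406, and 431 reads. The use of strand in the counting is not given in the sources used here, so reads of such overlaps cannot be told apart.

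CER1 (AT1G02205, chromosome 1, 418416 to 422579, plus strand) and CER3 (AT5G57800, chromosome 5, 23420184 to 23424117, plus strand) encode the partners of the complex that turns very-long-chain acyl-CoA into alkanes. CER1 had 273, 216, and 255 reads, or 33.6, 29.2, and 37.3 CPM, with a mean of 33.4 ± 4.04 CPM (SD, n = 3). CER3 had 191, 149, and 154 reads, or 23.5, 20.2, and 22.5 CPM, with a mean of 22.1 ± 1.72 CPM (SD, n = 3) that was 21.8 CPM without CK3. Both were lowest in CK2, the replicate in which KCS6 was highest. CER1 had more reads than CER3 in each of the 3 libraries, by 1.43-, 1.45-, and 1.66-fold, a log2 ratio of 0.59 ± 0.12 (SD, n = 3). Per kb of transcript the order was the same, with 11.2 ± 1.36 CPM per kb for CER1 and 8.53 ± 0.663 for CER3 (SD, n = 3). The CER1 mean was 31.4 CPM without CK3, a shift of 5.87% and the largest among the 7 genes when CK3 was left out.

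MAH1 (AT1G57750, chromosome 1, 21383812 to 21385709, minus strand) encodes the mid-chain alkane hydroxylase, a cytochrome P450 that forms the secondary alcohols and ketones best known from stem wax. It had 10, 2, and 2 reads, or 1.23, 0.271, and 0.293 CPM, so that only CK1 was above the level of 3 reads. The counting intervals (95%, exact) of the ratios between its replicates all included 1.

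CER4 (AT4G33790, chromosome 4, 16204096 to 16207956, minus strand) encodes the fatty acyl-CoA reductase that forms primary alcohols, and WSD1 (AT5G37300, chromosome 5, 14767426 to 14770396, plus strand) the wax ester synthase that joins these alcohols to acyl groups. CER4 had 8, 5, and 12 reads, or 0.985, 0.677, and 1.76 CPM. WSD1 had 5, 10, and 2 reads, or 0.616, 1.35, and 0.293 CPM. CER4 was above 3 reads in every replicate and WSD1 in CK1 and CK2, and their order turned in CK2, where WSD1 had more reads. The alkane-branch genes CER1, CER3, and MAH1 together had 474, 367, and 411 reads, and the alcohol-branch genes CER4 and WSD1 had 13, 15, and 14. The ratio of the 2 branches was 36.5, 24.5, and 29.4, or 4.89 ± 0.29 on the log2 scale (SD, n = 3), far above its spread over the replicates. MAH1 gave only 10, 2, and 2 reads of the alkane sum, so the ratio mainly sets CER1 and CER3 against CER4 and WSD1. Without CK3, the means were 0.831 CPM for CER4, 0.985 CPM for WSD1, and 0.751 CPM for MAH1, in another order than with it. Single libraries decided these levels, since the WSD1 mean of 0.754 CPM was 0.454 CPM without CK2 and the MAH1 mean of 0.598 CPM was 0.282 CPM without CK1.

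Ordered by mean CPM, the genes ran KCS6, CER2, CER1, PAS2, KCR1, CER10, CER3, CER4, WSD1, and MAH1. Of the 9 pairs of neighbours, 4 kept their order in all 3 replicates with a mean log2 difference larger than its SD. The order came from the means of these same replicates, which favours such agreement. These were KCS6 above CER2 (2.10 ± 0.15, SD, n = 3), KCR1 above CER10 (0.14 ± 0.06), CER10 above CER3 (0.42 ± 0.18), and CER3 above CER4 (3.83 ± 0.42). The two-sided p from an exact permutation test, in which the signs of the 3 differences were flipped, was 0.25 for each of them and could not be lower with 3 replicates. The other 5 pairs, CER2 with CER1, CER1 with PAS2, PAS2 with KCR1, CER4 with WSD1, and WSD1 with MAH1, did not differ beyond their spread. On the scale of CPM per kb, the order was KCS6 (71.8 ± 8.55), PAS2, CER2 (22.9 ± 1.26), CER10, KCR1, CER1, CER3, CER4, WSD1, and MAH1, and 7 of 9 pairs of neighbours met the same condition. Only CER4 with WSD1 and WSD1 with MAH1 did not. The length was that of the longest annotated transcript of each gene, so the division shifted the gaps between genes and added no reads.

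Several of the wax genes belong to families whose members share coding sequence, and the levels of these relatives bear on how far a read can be given to 1 gene. Windows of 90 bases of coding sequence are shown for a member and its relative, chosen because these are the relatives with the longest or closest match to KCS6, CER1, MAH1, and WSD1. Each is the first gap-free stretch of the pairwise alignment, in the sense direction, from the RefSeq TAIR10.1 annotation and genome, with capitals at the bases that differ between the pair. KCS6 (coding bases 22 to 111) and KCS5 (coding bases 7 to 96, chromosome 1) differ at 22 of the 90 bases.
KCS6: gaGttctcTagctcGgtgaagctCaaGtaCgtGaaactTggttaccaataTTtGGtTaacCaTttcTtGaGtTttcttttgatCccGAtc
KCS5: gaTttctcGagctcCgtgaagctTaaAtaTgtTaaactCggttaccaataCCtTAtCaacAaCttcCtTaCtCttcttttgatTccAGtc
CER1 and CER1-LIKE1 (both coding bases 1 to 90, chromosome 1) differ at 32 of the 90 bases.
CER1: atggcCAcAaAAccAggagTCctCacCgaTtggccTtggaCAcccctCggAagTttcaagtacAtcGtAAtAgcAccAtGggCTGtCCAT
CER1-LIKE1: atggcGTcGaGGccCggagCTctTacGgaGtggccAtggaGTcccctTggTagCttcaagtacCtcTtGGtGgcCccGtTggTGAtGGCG
MAH1 (coding bases 88 to 177) and CYP96A4 (coding bases 91 to 180, chromosome 5) differ at 23 of the 90 bases.
MAH1: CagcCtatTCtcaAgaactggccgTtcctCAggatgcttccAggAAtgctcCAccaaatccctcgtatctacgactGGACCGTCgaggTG
CYP96A4: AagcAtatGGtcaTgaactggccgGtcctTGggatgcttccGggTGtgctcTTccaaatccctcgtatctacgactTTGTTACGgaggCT
WSD1 (coding bases 143 to 232) and WSD3 (coding bases 107 to 196, chromosome 2) differ at 23 of the 90 bases.
WSD1: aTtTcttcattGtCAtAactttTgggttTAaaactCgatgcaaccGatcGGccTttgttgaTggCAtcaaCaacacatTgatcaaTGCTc
WSD3: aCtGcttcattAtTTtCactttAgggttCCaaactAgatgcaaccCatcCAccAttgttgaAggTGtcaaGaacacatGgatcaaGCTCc

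Over the whole coding sequence, KCS6 was 81.3% identical to KCS5, WSD1 78.1% to WSD3, MAH1 73.9% to CYP96A4, and CER1 65.2% to CER1-LIKE1. The high members and their relatives were not read alike. KCS6 had 1222, 1359, and 1031 reads against 182, 135, and 88 of KCS5, and CER1 had 273, 216, and 255 against 2, 4, and 3 of CER1-LIKE1. For MAH1 and WSD1, the relative was the more abundant gene. CYP96A4 had 361, 359, and 194 reads against 10, 2, and 2 of MAH1, and WSD3 had 95, 124, and 59 against 5, 10, and 2 of WSD1. Whether any of the few MAH1 and WSD1 reads came from these relatives was not tested.

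KCS6 held the largest share of its family. It took 25.5%, 28.5%, and 23.1% of the reads of the 3-ketoacyl-CoA synthase (KCS) genes in CK1, CK2, and CK3, a mean of 25.7% ± 2.73 (SD, n = 3). Of the 21 genes of the family, the table has 20, and 14 were detected. KCS10, known as FIDDLEHEAD and needed to keep epidermal surfaces from fusing, followed with 108 ± 4.35 CPM, and KCS20 had 76.7 ± 8.06 CPM (SD, n = 3). KCS10 is the epidermal marker FDH given above. KCS7, KCS15, and KCS18 had 0 reads in every replicate, which allows up to 0.369 CPM in CK1. The remaining genes of the family spread widely between replicates in a few cases, and KCS12 had 14.0, 23.4, and 54.0 CPM from 114, 173, and 369 reads.

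**Figure D2:**
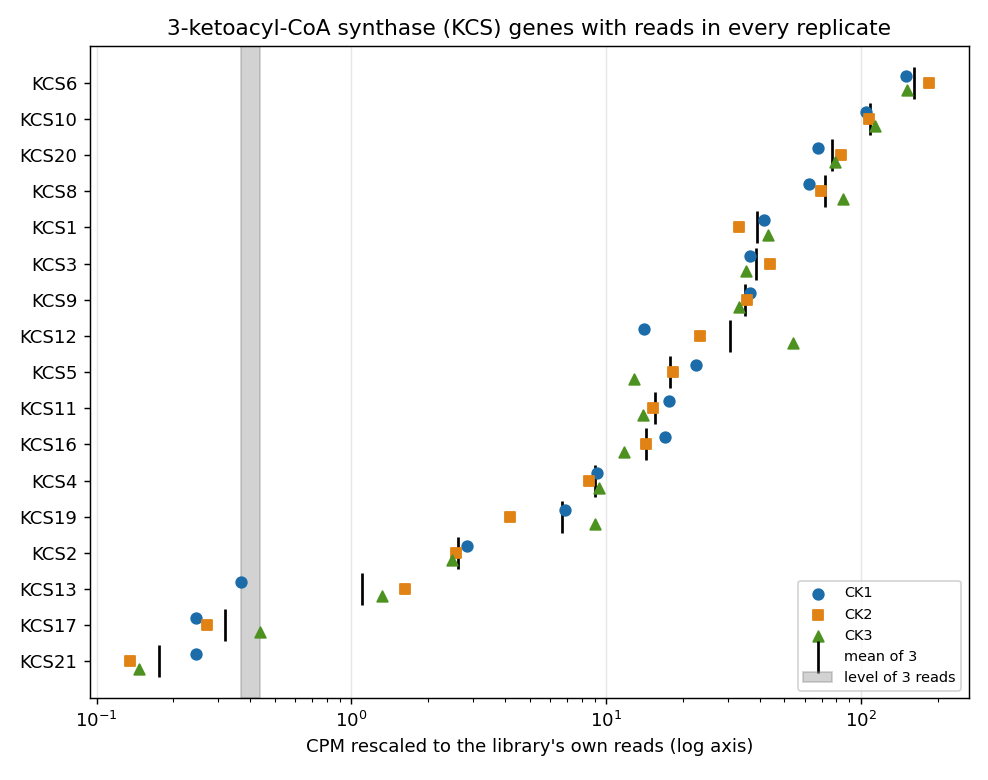
Level of the KCS genes with reads in every Nanopore replicate, as rescaled CPM on a log axis, with 1 symbol per replicate, a vertical tick at the mean, and a grey band at the level of 3 reads. KCS6 is the highest in each replicate at 150 to 184 CPM, KCS10 follows, and KCS12 shows the widest distance between CK1 (14.0 CPM) and CK3 (54.0 CPM) among the genes above 10 CPM.

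The other members differed in their standing among relatives. KCR1 held 90.4% ± 1.16 (SD, n = 3) of the reads of KCR1 and KCR2, and KCR2 had only 29, 29, and 20 reads. PAS2 and its relative PTPLA were about level, since PAS2 held 48.7%, 49.0%, and 55.3% of their reads in CK1, CK2, and CK3, and PTPLA was the higher of the pair in CK1 and CK2. CER2 held 47.4% ± 1.96 (SD, n = 3) of the reads of CER2, CER26, and CER26-LIKE, which had 37.2 ± 2.05, 27.0 ± 3.15, and 14.5 ± 2.04 CPM.

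In the alcohol branch, CER4 was the second of 7 fatty acyl-CoA reductase (FAR) genes in the table, with 8.35% ± 2.57 (SD, n = 3) of their reads. FAR1, which makes fatty alcohols for suberin, had 11.1 ± 2.29 CPM. WSD1 ranked sixth of 8 genes of its family in the table and held 3.09%, 4.72%, and 1.72% of their reads in CK1, CK2, and CK3, whereas WSD3 had 12.4 ± 4.12 CPM. Over all families, 19 relatives reached 20 reads in all replicates, and 4 of them (KCS5, KCS12, KCS19, and WSD3) differed by more than 1.5-fold between at least 1 pair of replicates, where 21.7% of the 14405 features with as many reads did.

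The replicates were then compared pair by pair on the scale log2(rescaled CPM + 0.5), over features that reached 20 reads in all of them. Between CK2 and CK1, 9.78% of the 14405 features differed by more than 1.5-fold in either direction, and 0 of the 7 wax genes did. Between CK3 and CK1 the background was 11.1% and between CK3 and CK2 12.2%, with 0 of 7 wax genes in both pairs. With 7 genes, such counts are near the background and say nothing particular about the wax genes. The 7 had a median log2 difference of 0.07 for CK2 against CK1, 0.00375 for CK3 against CK1, and -0.05 for CK3 against CK2, beside 0.06, 0.11, and 0.05 over all features. The median size of the difference was 0.12, 0.09, and 0.16 for the 7 and 0.21, 0.21, and 0.22 over all features. The 7 also had more reads, with a median of 248 per replicate against 127 over all features.

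**Figure D3:**
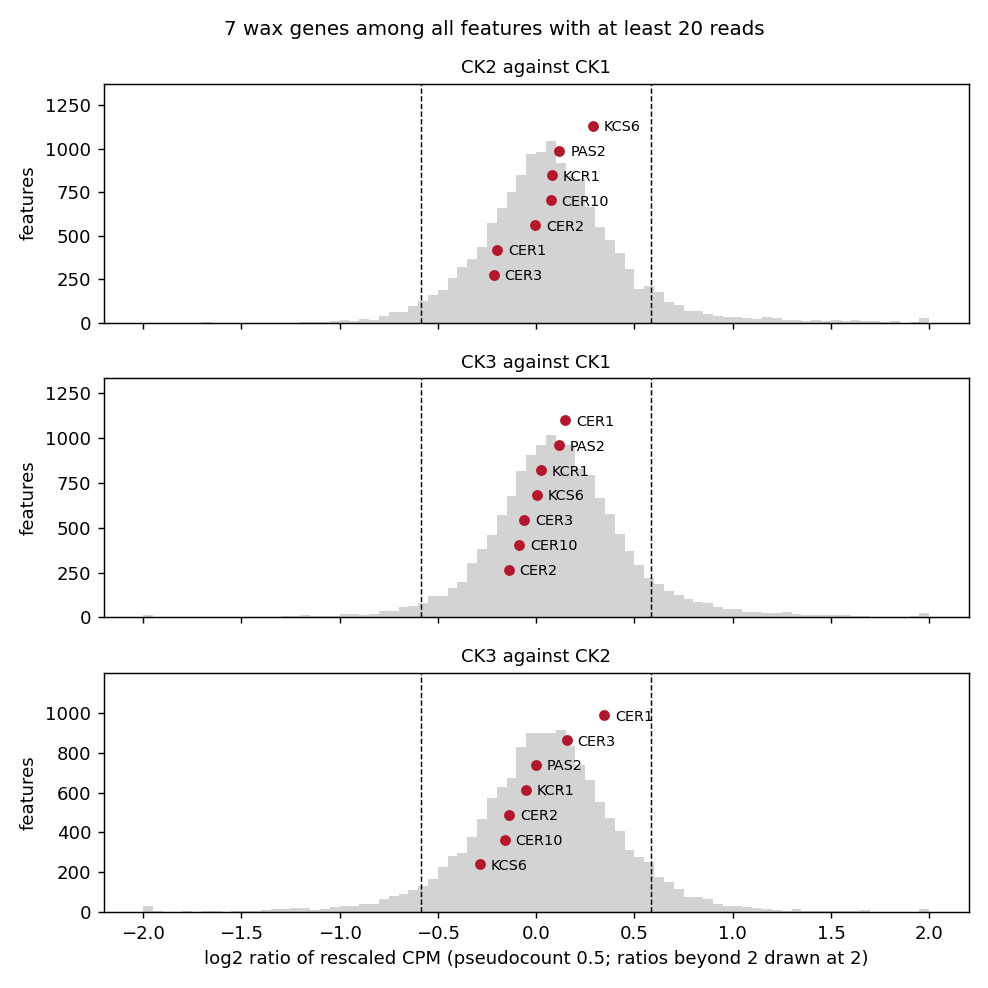
Distribution of log2 ratios of rescaled CPM between pairs of replicates over the 14405 features that reached 20 reads in all replicates (grey, number of features per bin), with the 7 wax genes as red points whose height only separates their names and dashed lines at 1.5-fold. All 7 lie between the dashed lines in each pair, and KCS6 and CER1 lie farthest from 0 in opposite directions for CK3 against CK2.

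The spread of the 7 genes was set beside counting error. Their coefficients of variation over the replicates ran from 2.85% for KCR1 to 12.1% for CER1, and reads alone would give 2.88% to 7.79%. In 5 of the 7 genes the spread did not exceed what reads alone would give, while KCS6 (11.9% against 2.88%) and CER1 (12.1% against 6.35%) exceeded it. Of 21 ratios between replicates, 3 had a counting interval that left out 1. KCS6 was 1.22-fold higher in CK2 than in CK1 (95% exact interval 1.13 to 1.32) and 0.820-fold in CK3 relative to CK2 (0.755 to 0.890), and CER1 was 1.28-fold higher in CK3 than in CK2 (1.06 to 1.54). These intervals cover counting error of 1 library on each side only. PCR copies of a cDNA are not independent molecules, so the intervals may be too narrow even for that.

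The wax genes were also set beside 34 other genes of the pathway, listed by role. All 34 have a row there, 32 were detected, and 25 were above the median of the detected reference genes. Of all reference genes, 77.8% were detected, and that median divides the detected ones evenly by definition. Their median level was 27.0 CPM. The genes that activate and supply acyl groups were led by LACS4, a long-chain acyl-CoA synthetase, with 90.3 ± 4.98 CPM, and the lowest was ACC1, the acetyl-CoA carboxylase that provides malonyl-CoA, with 12.3 ± 1.32 CPM (SD, n = 3). PAS1, an immunophilin-like protein that associates with the elongase, had 17.8 ± 2.38 CPM (SD, n = 3), below the 3 core enzymes in every replicate.

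Of the 4 export genes, 3 had a higher mean CPM than every wax biosynthesis gene other than KCS6. The transporter genes ABCG11 and ABCG12 (CER5), which carry wax across the plasma membrane, had 31.1 ± 1.23 and 77.1 ± 1.38 CPM, and the lipid transfer protein genes LTPG1 and LTPG2 had 111 ± 4.51 and 92.7 ± 11.1 CPM (SD, n = 3). Together these 4 genes had 312 ± 13.4 CPM. In the alkane branch, the cytochrome b5 genes, whose products serve as electron donors of CER1, ranged from 39.9 ± 3.60 CPM (CYTB5-B) to 258 ± 10.8 CPM (CYTB5-E). All 4 of them were above CER1 in mean CPM, and these proteins also serve many other enzymes. CER1-LIKE1 was one of the 2 listed genes that were not detected, and SHN1 (1, 5, and 1 reads) was the other.

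Among the regulators, DEWAX, a repressor of wax genes, had the highest mean, with 46.2, 48.1, and 55.7 CPM in CK1, CK2, and CK3, and SHN2 was the lowest detected with 1.77 ± 0.403 CPM (SD, n = 3). Among the 30 listed genes that reached 20 reads throughout, 2 were more than 1.5-fold higher in CK2 than in CK1 and 0 lower, 1 was higher and 2 lower in CK3 than in CK1, and 0 were higher and 1 lower in CK3 than in CK2. Over all features, 7.14% were higher and 2.64% lower in CK2 than in CK1, 8.54% and 2.51% in CK3 than in CK1, and 7.03% and 5.17% in CK3 than in CK2. The calls in the list came from 3 of its 30 genes, beside the 21.7% of all features that passed in any pair. MYB96, an activator of wax genes under drought, had 27.5, 52.1, and 47.8 CPM and was lowest in CK1. KCS5 had 22.4, 18.3, and 12.9 CPM and was lowest in CK3. SHN3, an activator of cuticle genes, had 8.49, 13.3, and 3.51 CPM from 69, 98, and 24 reads, with the lowest level in CK3.

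**Figure D4:**
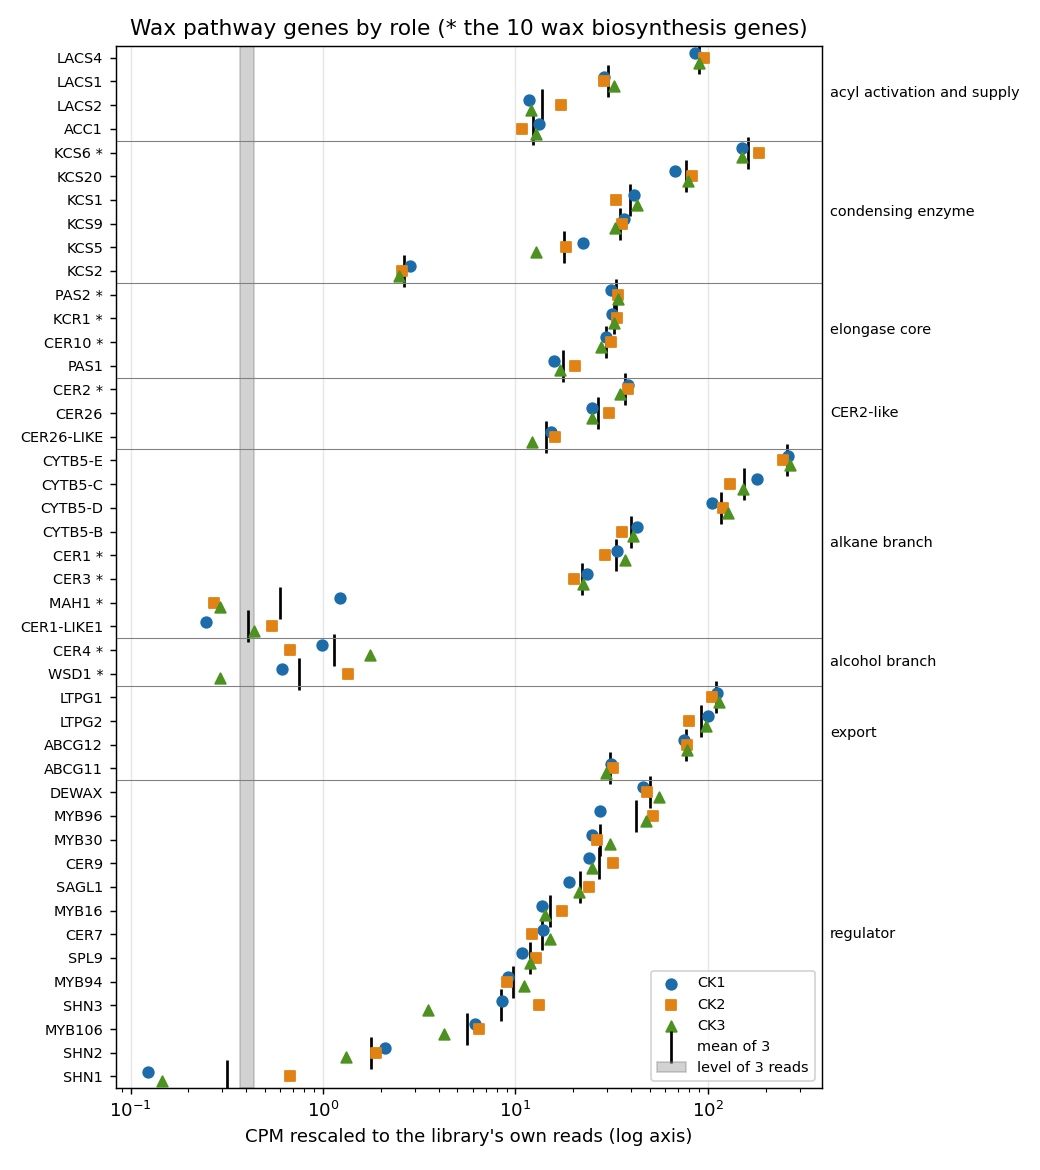
Level of the 10 wax biosynthesis genes (asterisks) and the 34 other pathway genes, grouped by role, in the 3 Nanopore replicates as rescaled CPM on a log axis, with 1 symbol per replicate, a vertical tick at the mean, and a grey band at the level of 3 reads. CER4 and WSD1 of the alcohol branch lie at 1.76 CPM or lower, the export genes lie at 29.7 CPM or higher, and SHN3, MYB96, and KCS5 show wide distances between replicates.

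The 250 bases before the annotated gene start were searched for short motifs on both strands, in the 10 wax genes and in 27443 genes of RefSeq TAIR10.1. The letters TAAATGNA, with N as any base, were searched as a loose form of the L1 box. They were present in 9.91% of all these windows and in 2 of the wax genes, CER1 and WSD1. In both of these matches the N was an A. The matches are therefore not taken as L1 boxes, and binding by the epidermal factors ATML1 and PDF2 was not tested. The TATA box letters TATAAA were in 47.4% of all windows and in 7 of the 10. CCAAT was in 46.0% and in 5 of the 10, TTGACC was in 12.2% and in CER10 alone, and GCCGCC (1.87%) and CACGTG (6.49%) were in 0 of the 10. Windows of CER1, WSD1, and KCS6 are shown because CER1 and WSD1 hold TAAATGNA at mean levels of 33.4 and 0.754 CPM (0.454 CPM for WSD1 without CK2), and KCS6, the highest gene, does not hold it. They are written 5′ to 3′ along the gene, with TAAATGNA matches and TATA boxes of either strand in capitals. CER1 is chr1:418166-418415 on the plus strand, WSD1 chr5:14767176-14767425 on the plus strand, and KCS6 chr1:25715025-25715274 on the minus strand.
CER1: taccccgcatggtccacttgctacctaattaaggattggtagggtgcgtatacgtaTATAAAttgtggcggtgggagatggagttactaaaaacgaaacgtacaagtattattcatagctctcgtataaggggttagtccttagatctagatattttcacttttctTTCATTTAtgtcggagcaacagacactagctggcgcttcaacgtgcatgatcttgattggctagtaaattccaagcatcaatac
WSD1: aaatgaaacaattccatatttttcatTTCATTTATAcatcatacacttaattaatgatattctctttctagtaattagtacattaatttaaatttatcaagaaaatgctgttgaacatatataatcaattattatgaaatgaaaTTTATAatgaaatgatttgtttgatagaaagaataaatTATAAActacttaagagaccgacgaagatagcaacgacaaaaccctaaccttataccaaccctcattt
KCS6: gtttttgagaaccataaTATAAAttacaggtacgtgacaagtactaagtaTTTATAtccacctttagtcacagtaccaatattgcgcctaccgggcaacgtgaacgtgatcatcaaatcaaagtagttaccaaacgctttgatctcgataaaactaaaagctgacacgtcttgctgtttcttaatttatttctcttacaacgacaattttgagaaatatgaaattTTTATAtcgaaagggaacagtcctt

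Counted back from the gene start, the TAAATGNA match of CER1 lies on the opposite strand from -84 to -77 and that of WSD1 on the opposite strand from -224 to -217, where it overlaps a TATA box from -220 to -215. A match of letters is a description and not a bound site, and the same letters occurred upstream of an abundant and a scarce wax gene.

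In the PacBio library, isoforms were listed by Pfam family, a group of proteins that share a domain, without pairing the isoforms with reference genes. All 10 wax genes have a family in this list. The WAX2 C-terminal domain family, which holds CER1 and CER3 and 4 reference genes in all, listed 10 PacBio isoforms at 2 loci, of which 1 had 8 isoforms. In the Nanopore table, 2 genes of this family were detected. The PTPLA family of PAS2 (2 reference genes) listed 4 isoforms at 2 loci, and the family of CER10 (9 reference genes) listed 3 isoforms at 3 loci. The family of the wax ester synthase WSD1 (11 reference genes) had 4 isoforms at 2 loci, beside 4 of its genes detected by Nanopore. For KCS6, the FAE1 family (24 reference genes) had 14 isoforms at 8 loci, beside 16 genes detected by Nanopore. The Transferase family of CER2 holds 64 reference genes and the Male sterility family of CER4 holds 66, and those of KCR1 and MAH1 are larger still in the short chain dehydrogenase and cytochrome P450 families, so their isoforms give little on the single gene. The list holds no read counts and comes from 1 library, so these numbers have no replicate error.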

How the data were processed

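The 10 genes, the gene lists, and the comparisons were chosen with earlier results of these data known. For Nanopore, the authors used Guppy for base-calling, Racon for consensus sequences, GMAP for mapping, and Salmon for estimated counts. The processing notes also name minimap2 and TAIR10. The authors deposited CPM per gene. The deposited CPM of CK1 add to 1000000, those of CK2 to 476263, and those of CK3 to 305905, because the divisors, 8122432, 15508616, and 22343645, are running totals of reads. Reads were recovered from the value of 1 read (100% of values within 0.05 of a whole number), and CPM were recomputed on each replicate's own reads. For PacBio, the deposited list of Pfam families holds identifiers of reference transcripts and isoforms, with no read count.

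Each value is a mean ± SD over 3 replicates, each a pool of plants per the paper's methods, so p-values measure only the spread between these samples. Detection required more than 3 reads in every replicate. Pairs of replicates were compared with a pseudocount of 0.5, at least 20 reads, and a fold of 1.5. No count test was run, because there is 1 condition. All 10 genes were named, and from the lists the highest and lowest detected genes of a role, those past the fold, and the closest relatives. Counting intervals are exact at 95% and cover counting error only. Gene models, positions, and sequences came from RefSeq TAIR10.1, and all 10 identifiers matched. Relatives were found with BLAST 2.17.0 (e-value up to 1e-10) and aligned with Biopython 1.88. Tables were handled with pandas 2.3.3 and numpy 2.4.6, intervals with scipy 1.17.1, and plots with matplotlib 3.10.9, under Python 3.11.15, and the procedures were tested on simulated data. The simulated reads varied by counting error only, so this check does not cover other spread between replicates.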

Additional observations from a re-analysis of the deposited data

How the results depend on the processing

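No paired comparison between conditions was possible because the design has 1 condition. Only genes of the same library were paired, in the ratios and in the test with flipped signs. The 1 PacBio library was not paired with a Nanopore replicate. With CPM as deposited, in place of rescaled CPM, the median level of the 10 genes was 18.5 in place of 31.2 CPM, and 7, 7, and 5 of the 7 genes passed 1.5-fold for CK2 against CK1, CK3 against CK1, and CK3 against CK2, beside 87.3%, 97.7%, and 44.0% of all features, since the divisors differ between columns. Without a minimum of reads, 2 of the 10 genes passed in each pair, all of them among MAH1, CER4, and WSD1, beside 14.9%, 16.3%, and 18.3% of all features. Per kb of transcript, 7 pairs of neighbours in the order of levels were separated in place of 4, and the share in the family was 86.3% for KCR1, 56.2% for CER1, and 51.1% for CER2. At 2-fold, 1 of the other pathway genes, SHN3, passed in place of 3. PacBio isoforms of the FAE1 family fell from 14 to 9 when loci had at least 2. Leaving out 1 replicate in turn gave 30.5 to 31.4 CPM for the median of the 10 genes and 8 to 9 genes detected, and the log2 ratio of CER4 to WSD1 ranged from -0.16 to 1.63, with the negative value without CK3. Pseudocounts of 1 and 0.1 and centring on the median left 0 of 7 genes past 1.5-fold in each pair. The few reads of MAH1, CER4, and WSD1 limit what can be said of them.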
